A study of Mus musculus with 12 samples.

Results

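The interaction of diet and injection was the subject of this comparison: whether a high-acetate diet changed hippocampal mRNA differently in mice seeded with pathological tau and in mice injected with saline. It was defined for each gene as the acetate minus control difference in tau-injected mice, less the same difference in PBS-injected mice, on the log2 scale. A positive interaction therefore marks a gene that acetate moved upward in tau mice relative to its movement in PBS mice, and a negative interaction marks the opposite. Of 24985 genes in the count table, 14742 passed the filter on low counts and were tested over all 12 mice. Polyadenylated RNA from the right dorsal hippocampus of C57Bl6/J mice, labelled male, was sequenced 24 hours after remote recall of a memory task. Each of the 4 groups held 3 mice, all injected at 6 months of age: PBS on control chow (PBS control), PBS on chow with 5% sodium acetate (PBS acetate), 1 µg of tau on control chow (tau control) and 1 µg of tau on acetate chow (tau acetate). The tau was purified from brains of Alzheimer's disease patients and injected on one side only, and the mice were wild type and kept on their chow for 6 months. The mice sequenced were picked as representative of larger groups, and all were harvested in 1 day and handled together, with no batch named.

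Totals ran from 12983233 to 20218340 counts per mouse, and scaling factors for library composition (TMM) stayed between 0.99 and 1.01. The common biological coefficient of variation was 7.25%. All 12 libraries carried 13583 to 25991 counts of Xist, the noncoding RNA of the inactive X chromosome, and the 49 Y-chromosome genes in the table had a total count of 0, which goes against the label male in every group alike. Summed marker lists set 2 mice apart: tau acetate mouse 3 had 521.7 CPM (counts scaled to a library of 1000000) over a choroid plexus list, where the other mice had 75.24 to 222.4, and PBS control mouse 2 had 311.5 CPM over a thalamic list, where the others had 68.25 to 148. Tau acetate mouse 1 had the highest sums of the complement and interferon lists. Values without these mice are given beside some of the results they touch. In bulk tissue, fewer cells of a type and less RNA per cell cannot be told apart.

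Acetate is taken up by brain cells and joined to coenzyme A by acetyl-CoA synthetases such as Acss2, and the acetyl group then serves lipid synthesis and protein acetylation. Oligodendrocytes, which wrap axons in lipid-rich myelin, are heavy users of acetyl-CoA, and ependymal cells line the ventricles beside the hippocampus and carry motile cilia. In the hippocampus, pyramidal neurons of areas CA1 and CA3 form the excitatory circuits on which memory tasks depend.

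Positive interactions outnumbered negative ones. At an adjusted p below 0.1 in edgeR's quasi-likelihood test, 164 genes had a positive interaction (1.11% of the genes tested) and 66 a negative one (0.448%). Without adjustment, p was below 0.05 for 997 genes with a positive interaction (6.76%) and 919 with a negative one (6.23%). Over all genes the interaction was above 0 for 48.8%, so there was no general shift toward positive values. The counts given below for each list are to be read beside these shares over all genes. The positive calls had a median log2 interaction of 0.797, made up of a median diet difference of -0.433 in PBS mice and of 0.408 in tau mice. For the negative calls the median was -0.536, from 0.443 in PBS mice and -0.193 in tau mice.

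Most called genes crossed over, that is, acetate went with less transcript in one injection and more in the other. Among the positive calls, 162 of 164 had diet differences of opposite sign, against 44.6% of all genes tested, and for 114 of them each of the 2 differences had an unadjusted p below 0.05. Another 38 had such a p in PBS mice alone and 12 in tau mice alone. Among the negative calls, 59 of 66 had opposite signs, but in only 22 were both differences past an unadjusted p of 0.05, while 41 had it in PBS mice alone and 3 in tau mice alone. The share of calls with such a p in PBS mice alone was thus 62.1% for negative and 23.2% for positive interactions. Such a gene could still have a sizeable difference in tau mice, as Depp1 had (1.59 in PBS and -0.56 in tau). Since an interaction is called from these same differences, the shares describe the shape of the calls and are no separate evidence for them.

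The values of single mice had the same shape. Since the calls were made from these values, the counts describe the calls and are no separate evidence for them. In 142 of the 164 positive calls every PBS acetate mouse lay below every PBS control mouse, in 83 every tau acetate mouse lay above every tau control mouse, and in 61 both held. That double pattern was found in 0.712% of all genes tested. In 62 of the 66 negative calls every PBS acetate mouse lay above every PBS control mouse, in 22 every tau acetate mouse lay below every tau control mouse, and in 18 both held, against 0.461% of all genes. Separation within 1 injection was not counted over all genes, so the 142, 83, 62 and 22 cannot be weighed against such a share. The mice given both tau and acetate were also set against those given neither. An unadjusted p below 0.05 between tau acetate and PBS control was found for 17 of the 164 positive calls (14.8% of all genes had one) and for 18 of the 66 negative calls. Between tau control and PBS acetate the counts were again 17 and 18, where 11.1% of all genes had such a p. Median log2 differences over the positive calls were -0.0225 for tau acetate minus PBS control and 0.0558 for tau control minus PBS acetate. Over the negative calls they were 0.137 and -0.115.

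**Figure D1:**
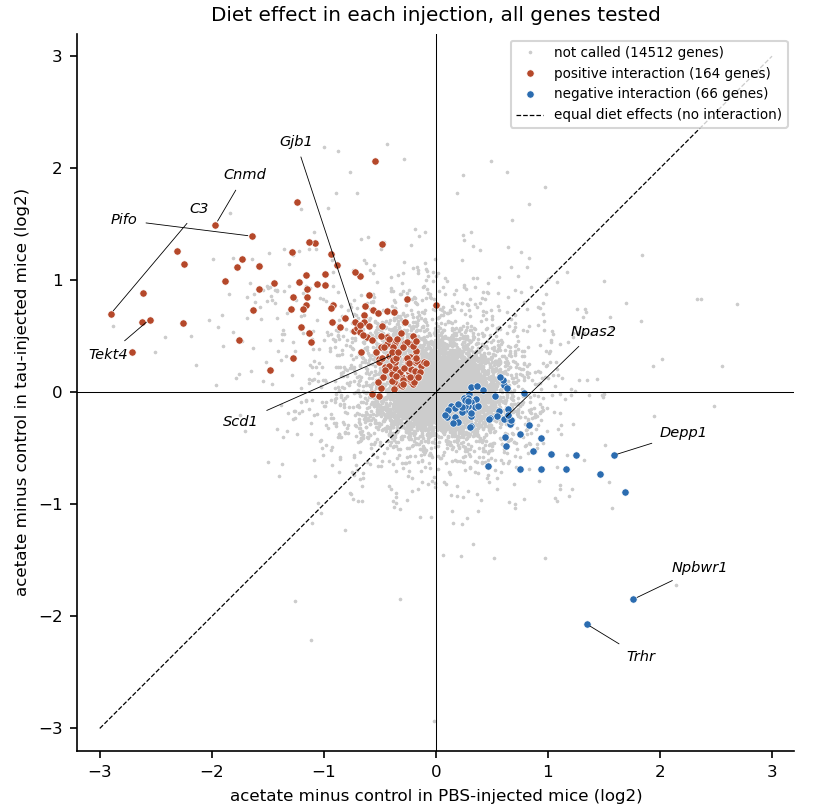
Acetate minus control (log2) in PBS-injected mice on the x axis and in tau-injected mice on the y axis, 1 point per gene tested, with called genes coloured; 2 uncalled genes lie outside the axes. The 164 positive calls sit almost all in the upper left quadrant, lower with acetate in PBS and higher with acetate in tau, and the 66 negative calls sit mainly in the lower right, closer to the horizontal line.

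The smallest p of the interaction belonged to Scd1 (chr19:44394455-44407879), which encodes the desaturase that makes monounsaturated fatty acids. Its level was 214, 211 and 196 CPM in PBS control, 166, 161 and 153 in PBS acetate, 161, 149.6 and 168 in tau control and 219.5, 199 and 188 in tau acetate. The diets did not overlap in either injection, and acetate went with less Scd1 in PBS mice and more in tau mice. The log2 interaction was 0.71 ± 0.09 (SE, adjusted p = 0.0024), from diet differences of -0.37 in PBS and 0.34 in tau, and it stayed past the threshold whichever mouse was left out. Tppp3 (chr8:105467493-105471526), a tubulin polymerization-promoting protein, was measured at 39.1, 28.8 and 34.5 CPM in PBS control, 23.5, 19.2 and 19.3 in PBS acetate, 20.7, 22.5 and 25.1 in tau control and 37.7, 34 and 27.7 in tau acetate. Again the diets were apart in both injections, with an interaction of 1.28 ± 0.18 (SE, adjusted p = 0.0206). Prkcq, the protein kinase C isoform theta, had 16.8, 11.4 and 14.3 CPM in PBS control, 10.1, 8.51 and 7.60 in PBS acetate, 9.38, 9.29 and 10.2 in tau control and 12.2, 15.1 and 15.7 in tau acetate, with no overlap of the diets and an interaction of 1.28 ± 0.21 (SE, adjusted p = 0.0206). Dbndd2, a casein kinase-binding protein, behaved alike at a higher level, with 185, 169.7 and 169 CPM in PBS control, 154, 146 and 136 in PBS acetate, 136, 135 and 136 in tau control and 181, 170.1 and 150.3 in tau acetate. Its interaction was 0.56 ± 0.09 (SE, adjusted p = 0.0206), smaller than that of Tppp3 but with an SE to match.

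Some leading genes were carried mainly by the tau mice. Myoc, which encodes the secreted protein myocilin, showed 15.3, 19.6 and 17.6 CPM in PBS control, 16.5, 17.7 and 18.1 in PBS acetate, 14.1, 15.6 and 14.1 in tau control and 26.3, 25.3 and 23.7 in tau acetate. The PBS groups overlapped and differed by 0.00 on the log2 scale, whereas every tau acetate mouse exceeded every other mouse of the series, and the interaction was 0.78 ± 0.14 (SE, adjusted p = 0.03). Car14, a membrane-bound carbonic anhydrase, likewise had 11.5, 10.7 and 9.07 CPM in PBS control, 9.69, 8.87 and 7.67 in PBS acetate, 6.78, 6.70 and 7.17 in tau control and 13.4, 11.8 and 11.4 in tau acetate, and its interaction of 1.09 ± 0.18 (SE, adjusted p = 0.0261) came from differences of -0.26 in PBS and 0.83 in tau. Plin4, a lipid droplet coat protein and a target of glucocorticoid and FoxO signalling, measured 3.67, 2.70 and 4.54 CPM in PBS control, 2.78, 2.42 and 2.68 in PBS acetate, 2.02, 1.66 and 2.44 in tau control and 5.01, 4.66 and 5.65 in tau acetate, with an interaction of 1.80 ± 0.31 (SE, adjusted p = 0.0261). Others moved in both injections. Rgma, a membrane-anchored guidance molecule that repels growing axons, was apart between diets in both injections, and its interaction of 0.50 ± 0.09 (SE, adjusted p = 0.0261) rested on differences of -0.18 in PBS and 0.32 in tau. Nkain1, which interacts with the sodium-potassium pump, had an interaction of 0.66 ± 0.12 (SE, adjusted p = 0.0397). Cnmd, the matrix protein chondromodulin, was scarce throughout, at 1.28, 1.31 and 0.948 CPM in PBS control, 0.258, 0.361 and 0.256 in PBS acetate, 0.721, 0.597 and 0.534 in tau control and 1.19, 1.15 and 3.02 in tau acetate, and had the largest interaction of the 12 leading positive genes, 3.46 ± 0.64 (SE, adjusted p = 0.0417). Its tau acetate mean leaned on mouse 3, the mouse with the high choroid plexus list, but the other tau acetate mice also lay above every tau control mouse.

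Genes of ependymal cells and motile cilia formed a group on the positive side with large interactions. All 19 members of the list were tested, all 19 had an interaction above 0, 17 had an unadjusted p below 0.05 and 8 were called (Foxj1, Tmem212, Rarres2, Dynlrb2, Mia, Ak7, Pifo and Enkur), none of them negatively. The median log2 interaction of the list was 2.03, against -0.00526 over all genes tested, with a median diet difference of -1.30 in PBS and 0.78 in tau. Summed over the list, transcripts measured 90.3, 81.7 and 90.9 CPM in PBS control, 41.5, 40.8 and 44.7 in PBS acetate, 39.6, 66.7 and 55.2 in tau control and 112, 52.9 and 89 in tau acetate. The PBS diets were far apart, while the tau diets overlapped through tau acetate mouse 2, the lowest of its group.

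Foxj1 (chr11:116330704-116335399), the transcription factor that switches on the motile cilium programme, was at 16.3, 16.5 and 15.3 CPM in PBS control, 7.88, 6.55 and 7.35 in PBS acetate, 5.77, 9.62 and 9.46 in tau control and 20.8, 9.92 and 13.9 in tau acetate. Every tau acetate mouse lay above every tau control mouse, if by little for mouse 2, and the interaction was 2.00 ± 0.35 (SE, adjusted p = 0.0466). Rarres2, the chemoattractant chemerin, had 9.20, 6.18 and 9.41 CPM in PBS control, 4.20, 4.33 and 4.66 in PBS acetate, 3.75, 5.77 and 4.20 in tau control and 8.77, 6.41 and 8.41 in tau acetate, and an interaction of 1.70 ± 0.27 (SE, adjusted p = 0.0206) that held with each mouse left out. Dynlrb2, a light chain of cytoplasmic dynein found with cilia, stood at 1.63, 2.16 and 1.83 CPM in PBS control, 0.646, 0.361 and 0.511 in PBS acetate, 1.15, 1.06 and 0.458 in tau control and 2.58, 1.09 and 1.67 in tau acetate, giving 2.88 ± 0.56 (SE, adjusted p = 0.0435). Pifo, which acts at the primary cilium as it is taken apart, reached an interaction of 3.03 ± 0.57 (SE, adjusted p = 0.0417) from levels between 0.258 and 1.22 CPM. Enkur, a calmodulin-binding adaptor of the sperm and cilium, had 4.19, 2.86 and 4.13 CPM in PBS control, 1.55, 1.60 and 1.98 in PBS acetate, 2.88, 2.98 and 2.29 in tau control and 4.21, 3.39 and 4.17 in tau acetate, with no overlap of the diets in either injection and an interaction of 1.66 ± 0.31 (SE, adjusted p = 0.0417). Ak7, an adenylate kinase of motile cilia, had 2.43 (adjusted p = 0.0634), Tmem212 had 2.70 (adjusted p = 0.0567) and the secreted protein Mia had 2.51 (adjusted p = 0.0706). In edgeR with tau acetate mouse 2 left out, 15 members were called, and with PBS acetate mouse 2 left out, 1 (Rarres2).

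Chosen from the positive calls after their values were seen, so that their direction was fixed by the choice, 12 called genes of the axoneme or its assembly outside the list (Cfap43, Tekt1, Tekt4, Mapk15, Ccdc40, Armc3, Ccdc78, Cfap299, Iqca, Gas2l2, Maats1 and Ubxn10) had interactions from 1.47 to 3.5, with a median of 2.12. Tekt1, a filament protein of the axoneme, had 3.67, 2.63 and 3.32 CPM in PBS control, 1.49, 1.19 and 1.28 in PBS acetate, 1.59, 1.19 and 2.52 in tau control and 4.21, 1.94 and 2.57 in tau acetate, and an interaction of 2.04 (adjusted p = 0.0547). Tekt4, its relative, had 3.21 (adjusted p = 0.0511) and Cfap43, a cilium and flagellum protein, 1.94 (adjusted p = 0.0417). These genes were scarce in this tissue, and of all positive calls 66 (40.2%) had a mean below 10 CPM, as had 20 of 66 negative calls (30.3%). The lower quartile and median of the mean CPM were 3.06 and 18.3 over the positive calls. Over all genes tested they were 6.32 and 23.4.

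The promoters of a few called cilium genes are shown, from 250 bases before to 50 after the annotated start (RefSeq, GRCm38.p6). RFX transcription factors, which drive ciliary genes, bind the X-box, whose half-site reads GTTGCC, and capitals mark this half-site on either strand. Every promoter shown holds it, while 6 of 16 promoters of the ependymal and cilium list did. Those shown therefore do not stand for cilium genes in general.
Dynlrb2: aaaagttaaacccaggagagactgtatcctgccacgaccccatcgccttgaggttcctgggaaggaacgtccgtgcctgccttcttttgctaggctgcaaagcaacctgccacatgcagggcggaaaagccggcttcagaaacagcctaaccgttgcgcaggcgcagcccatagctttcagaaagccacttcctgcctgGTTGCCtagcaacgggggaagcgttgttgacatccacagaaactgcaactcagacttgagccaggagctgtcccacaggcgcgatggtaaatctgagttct
Enkur: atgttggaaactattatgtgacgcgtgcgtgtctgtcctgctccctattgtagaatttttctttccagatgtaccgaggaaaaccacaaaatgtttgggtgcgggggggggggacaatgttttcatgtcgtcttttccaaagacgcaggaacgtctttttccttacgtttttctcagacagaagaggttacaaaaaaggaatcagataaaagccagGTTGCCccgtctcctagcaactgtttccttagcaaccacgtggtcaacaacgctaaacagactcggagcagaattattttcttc
Tekt1: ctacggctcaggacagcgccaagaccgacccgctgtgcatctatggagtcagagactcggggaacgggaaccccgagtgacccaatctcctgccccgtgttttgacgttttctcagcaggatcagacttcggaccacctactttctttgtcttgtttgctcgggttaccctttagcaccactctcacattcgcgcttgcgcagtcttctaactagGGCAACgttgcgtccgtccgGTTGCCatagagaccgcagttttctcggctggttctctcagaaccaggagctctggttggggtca
The Dynlrb2 promoter (chr8:116504765-116505064, plus strand) held the half-site beginning 51 bases before the start, the Enkur promoter (chr2:21205316-21205615, minus strand) 34 bases before it, and the Tekt1 promoter (chr11:72361833-72362132, minus strand) 35 and 15 bases before it. The half-site was searched after the data were seen. It was found in 6 of 16 ependymal and cilium list genes with a RefSeq promoter (37.5%), in 23 of 130 positive calls (17.7%), in 2 of 41 negative calls (4.88%) and in 13.0% of all 11505 genes tested that had a promoter, taking the first listed start of each gene. These are matches of letters and not binding sites. The RFX factors themselves were not called: over 6 members tested the median interaction was -0.14, and the 1 member with an unadjusted p below 0.05 was Rfx1, at -0.27 (unadjusted p = 0.0419). DESeq2 called none of them either.

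Oligodendrocyte genes formed the larger group by abundance. All 25 members of the mature oligodendrocyte and myelin list had an interaction above 0, all 25 had an unadjusted p below 0.05, and 5 were called, among them Fa2h, Gjb1, Nipal4 and Tmem125. The list's median interaction was 1.05, from -0.52 in PBS and 0.52 in tau. Summed myelin-list transcripts were 11050.0, 9109 and 8531 CPM in PBS control, 7454, 6157 and 5421 in PBS acetate, 5896, 5742 and 6943 in tau control and 10490.0, 9275 and 6532 in tau acetate. All PBS acetate mice lay below all PBS controls, and tau acetate mice 1 and 2 lay above all tau controls, while tau acetate mouse 3 lay within their range. With that mouse left out, 24 of the 25 were called, and with PBS acetate mouse 2 or tau control mouse 2 left out, none was. DESeq2's Wald test over all mice called 23.

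Gjb1 (chrX:101376378-101385629), the gap junction protein connexin 32, was measured at 23.3, 18.6 and 17.4 CPM in PBS control, 13.5, 11.8 and 10.9 in PBS acetate, 11.3, 9.95 and 13.3 in tau control and 21.9, 17.8 and 13.1 in tau acetate, with an interaction of 1.35 ± 0.25 (SE, adjusted p = 0.0466). Fa2h, the fatty acid 2-hydroxylase that shapes myelin galactolipids, had 53.9, 47 and 46.3 CPM in PBS control, 31.5, 31.5 and 29.5 in PBS acetate, 28.6, 32.8 and 38 in tau control and 57.7, 50.03 and 36.2 in tau acetate, and an interaction of 1.21 ± 0.21 (SE, adjusted p = 0.0466). In both genes the PBS diets were apart, and the lowest tau acetate mouse, mouse 3, fell among the tau controls. The transporter-like gene Nipal4 had 1.30 ± 0.31 (SE, adjusted p = 0.0686) and the membrane protein gene Tmem125 1.09 ± 0.24 (SE, adjusted p = 0.056). The abundant myelin basic protein (Mbp) had an interaction of the same size without being called, 1.12 (adjusted p = 0.104). Aspartoacylase (Aspa), which frees acetate from N-acetylaspartate in oligodendrocytes, had 1.07 (adjusted p = 0.121).

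Factors of the lineage had the same direction, while the precursor list was centred near 0. All 9 lineage factors had an interaction above 0, with a median of 0.79; 6 had an unadjusted p below 0.05 and 1, the homeobox gene Nkx6-2, was called. Nkx6-2 showed 16.8, 17.8 and 15.6 CPM in PBS control, 14.6, 10.4 and 11.1 in PBS acetate, 9.30, 9.82 and 11.9 in tau control and 17.8, 16.2 and 12.4 in tau acetate, with no overlap in either injection and an interaction of 1.07 ± 0.21 (SE, adjusted p = 0.0435). Myrf, the master regulator of myelin genes, had 1.10 (adjusted p = 0.117), Sox10 0.87 (adjusted p = 0.204) and Olig1 0.50 (adjusted p = 0.105). Of 6 markers of newly formed oligodendrocytes 4 were above 0, with Enpp6, a choline phosphodiesterase, called at 1.40 ± 0.33 (SE, adjusted p = 0.0803) and Bcas1 at 1.14 (adjusted p = 0.116). Tcf7l2, which is also abundant in thalamus, had the largest value of that list, 2.34 (adjusted p = 0.406), but 1.25 (adjusted p = 0.54) without PBS control mouse 2, the mouse with the high thalamic list. With that mouse and tau acetate mouse 3 left out it had 0.582 (adjusted p = 0.591) and the list's median went from 0.99 to 0.43. The 10 precursor markers split evenly, with 5 above 0, none called, 1 with an unadjusted p below 0.05 on each side (Gpr17 0.26 (unadjusted p = 0.041) and Cspg4 -0.27 (unadjusted p = 0.0449)) and a median of -0.004; DESeq2 called none of them. Outside the lists and chosen after their values were seen, 12 called genes known from myelin or oligodendrocytes (Car2, Qk, Cers2, Klk6, Apod, Slc44a1, Edil3, Gpr62, Cmtm5, Padi2, Gsn and Daam2) had interactions from 0.369 to 2.12, with a median of 0.703. Carbonic anhydrase 2 (Car2) had 0.75 (adjusted p = 0.0736), the ceramide synthase Cers2 0.69 (adjusted p = 0.0972), the RNA-binding protein quaking (Qk) 0.37 (adjusted p = 0.0973) and the kallikrein Klk6 2.12 (adjusted p = 0.0736).

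Glial reaction and immune genes leaned to the positive side, with few calls. In the reactive glia list 8 of 12 members tested were above 0 and 2 were called. Vim, the intermediate filament vimentin of astrocytes and ependymal cells, had 50.9, 47.7 and 45.7 CPM in PBS control, 39.5, 33.9 and 33.7 in PBS acetate, 41.9, 35.7 and 40.4 in tau control and 66.1, 47.1 and 52.4 in tau acetate. The diets did not overlap in either injection, and the interaction was 0.93 ± 0.15 (SE, adjusted p = 0.0357). Cd44, a hyaluronan receptor, had 1.57 (adjusted p = 0.0755), and Clec7a, a lectin of activated microglia, had the largest value of the list without being called, 3.03 (adjusted p = 0.167). All 13 complement and MHC class I genes were above 0 (median 0.26), and C3, the central complement protein, was called. No other member had an unadjusted p below 0.05, and 8 of the 13 had diet differences of opposite sign. C3 measured 9.95, 5.17 and 6.77 CPM in PBS control, 1.49, 0.619 and 0.894 in PBS acetate, 1.44, 4.05 and 3.74 in tau control and 7.48, 2.48 and 4.88 in tau acetate, so that acetate went with a lower level in every PBS mouse, the tau groups overlapped, and the interaction was 3.60 ± 0.70 (SE, adjusted p = 0.0634). It was highest in PBS control mouse 1, and without tau acetate mouse 1 the interaction was 3.15 (adjusted p = 0.131) and no member of the list was called. That mouse had the highest summed complement and MHC class I transcripts, at 399.3 CPM, where the other mice had 248.9 to 327.8, and without it the list's median was 0.13. Cd44 without it had 1.17 (adjusted p = 0.211).

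For type I interferon genes, 19 of 22 were above 0 and 5 had an unadjusted p below 0.05, among them Ifit1 at 1.17 (unadjusted p = 0.00923), but none was called by edgeR or DESeq2. The list's median was 0.49, and 0.17 without tau acetate mouse 1, which had a sum of 249.4 CPM against 149.7 to 188.7 in the other mice. Microglial markers were above 0 in 13 of 16, with a median of 0.13 (0.05 without tau control mouse 2); none was called by edgeR or DESeq2, and the 2 with an unadjusted p below 0.05 were the adaptor Tyrobp, 0.51 (unadjusted p = 0.00889), and the complement component C1qa, 0.38 (unadjusted p = 0.0169). Chosen after their values were seen, 7 called cytokine and inflammation genes outside the lists ranged from 0.391 to 3.24: the chemokine Cxcl5 3.24 (adjusted p = 0.0803), the signalling adaptor Traf1 3.08 (adjusted p = 0.0466), the lectin Lgals3 2.47 (adjusted p = 0.0749), the protease inhibitor A2m 2.03 (adjusted p = 0.0885), the transcription factor Stat3 0.57 (adjusted p = 0.0797), the growth factor Csf1 0.45 (adjusted p = 0.0766) and the interleukin 6 signal transducer Il6st 0.39 (adjusted p = 0.0466). With each mouse left out in turn, A2m was called in 2 of 12 fits, Cxcl5 in 3, Csf1 and Lgals3 in 4, Stat3 in 5, Il6st in 9 and Traf1 in 10. For Traf1 and Il6st the diet difference had an unadjusted p below 0.05 in PBS mice alone. The deubiquitinase Tnfaip3, which restrains NF-kappaB signalling, was called on the negative side, -0.92 (adjusted p = 0.0902), and in 2 of the 12 fits.

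Astrocytes as a class did not share the direction of oligodendrocytes: 8 of 17 markers were above 0 and the median was -0.07. The water channel Aqp4 was called at 0.35 (adjusted p = 0.0755), with 149, 174 and 149 CPM in PBS control and 143, 133 and 135 in PBS acetate, against 156, 145 and 142 in tau control and 163, 160.3 and 169 in tau acetate. The inward rectifier Kcnj10, the potassium channel of astrocytes and oligodendrocytes, was called at 0.42 ± 0.08 (SE, adjusted p = 0.0435), with 214, 226 and 196 CPM in PBS control, 189, 183 and 166 in PBS acetate, 179, 178 and 184 in tau control and 208, 202 and 202 in tau acetate and no overlap of diets in either injection. Gfap, the filament protein of astrocytes, had 0.42 (adjusted p = 0.152), while the glutamate transporter Slc1a3 had -0.24 (adjusted p = 0.17) and the glycolytic enzyme Aldoc -0.23 (adjusted p = 0.243).

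Single members of other functional lists were called on the positive side. In the autophagy and lysosome list, 24 of 30 members were above 0 with a median of 0.09; the lysosomal membrane protein Lamp1 had 0.29 (adjusted p = 0.062) and the receptor for endoplasmic reticulum turnover Retreg1 0.53 (adjusted p = 0.0466). Retreg1 came almost wholly from the PBS mice (-0.49 in PBS and 0.04 in tau). In the glucocorticoid and FoxO list the muscle atrophy ligase Fbxo32 joined Plin4, at 0.66 ± 0.13 (SE, adjusted p = 0.0466), with 43.3, 42.5 and 41.1 CPM in PBS control, 39.7, 35.6 and 33.2 in PBS acetate, 32.9, 23.8 and 28.8 in tau control and 38.9, 40.2 and 36.2 in tau acetate. The list itself was near 0, at a median of 0.05. Of the fibroblast growth factor and ERK feedback genes, Spry2, an inhibitor of receptor tyrosine kinase signalling, had 0.47 (adjusted p = 0.0466) and the ligand Fgf1 0.38 (adjusted p = 0.0885). The Spry2 diet difference was -0.38 in PBS and 0.09 in tau, with an unadjusted p below 0.05 in PBS mice alone. Over the 12 fits with a mouse left out, Spry2 was called in 9 and Fgf1 in 1. Among 31 lysine acetylation enzymes and readers 1 was called, the deacetylase Sirt2, which is abundant in oligodendrocytes, at 0.32 (adjusted p = 0.0909). Sirt2 was called in 2 of the 12 fits with a mouse left out. That list did not lean to the positive side: 19 of its members were below 0 and its median was -0.03. Fatty acid synthesis genes were above 0 in 13 of 21, where 48.8% of all genes tested were. Of these genes Scd1 was called, while Scd2 had 0.29 (adjusted p = 0.139) and the elongase Elovl7 0.65 (adjusted p = 0.142).

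The choroid plexus and thalamic lists also had large positive medians, and each turned on single mice. Summed choroid plexus transcripts were 114, 106 and 138 CPM in PBS control, 75.2, 80.2 and 92.1 in PBS acetate, 222, 112 and 156 in tau control and 95, 91.9 and 522 in tau acetate. The list median was 1.29 and ranged from 0.24 to 1.63 when each mouse was left out in turn, with the low end reached without tau acetate mouse 3. Transthyretin (Ttr), its most abundant product, had 1.87 (unadjusted p = 0.196) and turned to -0.17 without that mouse. The 1 called member was the folate receptor Folr1, at 2.92 (adjusted p = 0.0755), whose level was 1.98, 1.39 and 1.35 CPM in PBS control, 0.517, 0.516 and 0.383 in PBS acetate, 0.938, 0.995 and 0.992 in tau control and 1.83, 0.726 and 4.24 in tau acetate. With each mouse left out in turn, Folr1 ran from 2.15 to 3.33 and was called in 3 of 12 fits. Thalamic markers were above 0 in 8 of 8 with a median of 1.18, none was called by edgeR, 1 had an unadjusted p below 0.05 (Tnnt1, 2.92 (unadjusted p = 0.0249)) and DESeq2 called 1. Their sums were 98.4, 312 and 148 CPM in PBS control, and from 68.25 to 120.8 in the 9 other mice. The thalamic median was 0.39 without PBS control mouse 2. With both of those mice left out, the ependymal median was 2.15, with 7 members called, and the myelin median 1.24, with 24 called.

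**Figure D2:**
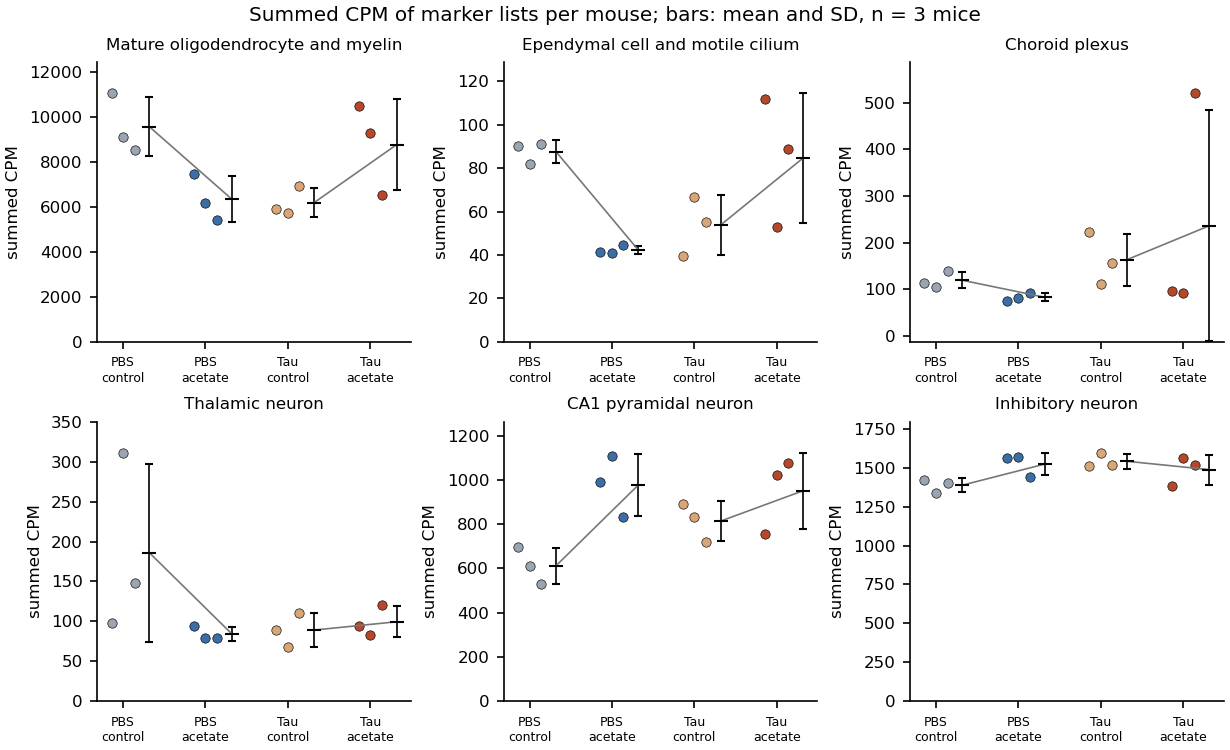
Summed CPM of 6 marker lists (y axes) in each mouse, by group (x axes), with the group mean and SD over 3 mice drawn as bars and a line joining the diets within an injection. Myelin and ependymal sums are lower with acetate in PBS and higher on average with acetate in tau, the choroid plexus rise is mouse 3 of tau acetate (521.7 CPM), and the high thalamic value is mouse 2 of PBS control (311.5 CPM).

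On the negative side the circadian clock held the gene with the smallest p. Clock genes form a feedback loop in which factors such as Clock, Arntl and Npas2 bind E-boxes and switch on Per and Bhlhe40 genes, whose products repress them. Of 20 members tested, 15 were below 0, 6 had an unadjusted p below 0.05 and 3 were called (Npas2, Bhlhe40 and Per1), with a list median of -0.16 from 0.17 in PBS and 0.05 in tau. Npas2 (chr1:39193731-39363236) had 16.7, 16.2 and 12.5 CPM in PBS control, 23.8, 24.8 and 20.5 in PBS acetate, 21.3, 24.3 and 20.4 in tau control and 16.6, 19 and 20.6 in tau acetate. Acetate went with more Npas2 in every PBS mouse, the tau groups met at their edges with the lower values under acetate, and the interaction was -0.85 ± 0.16 (SE, adjusted p = 0.0435). Bhlhe40 had 86.7, 94.5 and 89.7 CPM in PBS control, 145, 145 and 122 in PBS acetate, 119, 129 and 116 in tau control and 112, 134 and 137 in tau acetate, with the PBS diets apart and the tau diets overlapping, and an interaction of -0.54 ± 0.11 (SE, adjusted p = 0.0511). Per1 was similar in shape, at 76.6, 64.6 and 61.1 CPM in PBS control, 108, 103 and 91.6 in PBS acetate, 79, 80.9 and 89.1 in tau control and 93.3, 86.1 and 94.8 in tau acetate, with an interaction of -0.44 ± 0.11 (SE, adjusted p = 0.0917). For both, the diet difference in tau mice was small and positive, so by sign these genes did not cross over, and the diet difference had an unadjusted p below 0.05 in PBS mice alone. Cry2 had -0.19 (adjusted p = 0.247) and Ciart -0.68 (adjusted p = 0.255). Leaving out PBS acetate mouse 2 or tau acetate mouse 1 left no clock gene called, and leaving out tau acetate mouse 3 gave 4.

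The promoter of Per1 is shown because an E-box lies in it, written CACGTG in capitals.
Per1: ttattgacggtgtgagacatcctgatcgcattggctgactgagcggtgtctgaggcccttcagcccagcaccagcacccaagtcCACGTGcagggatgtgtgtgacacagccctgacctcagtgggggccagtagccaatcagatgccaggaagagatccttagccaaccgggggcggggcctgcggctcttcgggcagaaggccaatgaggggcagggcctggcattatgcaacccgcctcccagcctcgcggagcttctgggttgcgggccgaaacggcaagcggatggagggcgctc
This stretch (chr11:69098699-69098998, plus strand; RefSeq, GRCm38.p6) is the first of 2 annotated starts, and the E-box begins 166 bases before it. An E-box stood in 5 of 17 clock promoters (29.4%), in 5 of 41 negative calls (12.2%), in 8 of 130 positive calls (6.15%) and in 9.99% of all promoters of genes tested. The other motifs searched on both strands, none of which contains another, gave shares among positive calls, negative calls and all genes of 3.85%, 2.44% and 3.17% for the cyclic AMP response element (TGACGTCA), 30.8%, 29.3% and 38.3% for CCAAT, 66.9%, 61.0% and 63.3% for the GC box (GGGCGG), 18.5%, 9.76% and 13.4% for the SOX core ACAAAG, and 6.92%, 14.6% and 7.08% for the SOX core CATTGT. No test was run on these shares, which for the negative calls rest on 41 promoters.

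Receptor and channel genes supplied most of the other negative calls in lists. Of 42 genes of glutamate receptors and the postsynaptic density, 26 were below 0 and 3 were called, all negative. Over all genes tested, 7545 of 14742 were below 0 and 0.448% were called negative. An unadjusted p below 0.05 was found for 9 members on the negative side and 3 on the positive side. The shares over all genes were 6.23% and 6.76%. Gria2, the AMPA receptor subunit that limits calcium entry, had 1175, 1173 and 1183 CPM in PBS control, 1309, 1303 and 1275 in PBS acetate, 1192, 1219 and 1265 in tau control and 1129, 1115 and 1131 in tau acetate. The diets did not overlap in either injection, with the higher values under acetate in PBS and under control chow in tau, and the interaction was -0.26 ± 0.06 (SE, adjusted p = 0.0659). Gria3, another AMPA receptor subunit, had -0.27 ± 0.07 (SE, adjusted p = 0.0839) with the same double separation, and Grm5, a metabotropic receptor, had 327, 323 and 318 CPM in PBS control, 371, 377 and 339 in PBS acetate, 342, 382 and 359 in tau control and 320.0, 327 and 337 in tau acetate and -0.30 ± 0.07 (SE, adjusted p = 0.0755). The kainate receptor Grik2 had -0.27 (adjusted p = 0.123). These interactions are small next to those of the cilium genes, and the list's median was -0.05. None of the 3 was called when any of 6 mice was left out (PBS control 2, PBS acetate 1 or 2, tau control 2, tau acetate 1 or 2).

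Gabrg1, a gamma subunit of the GABA-A receptor, was at 16.1, 16.7 and 17.4 CPM in PBS control, 22.2, 20.2 and 19.9 in PBS acetate, 18.1, 20.8 and 19.7 in tau control and 15.1, 15.5 and 17 in tau acetate, apart between diets in both injections, with an interaction of -0.61 ± 0.13 (SE, adjusted p = 0.0466). Of 18 GABA receptor and inhibitory synapse genes 14 were below 0. Among 52 potassium channels, Kcnh3, a neuronal channel of the ether-a-go-go family, had 87.2, 93.4 and 90.1 CPM in PBS control, 119, 124 and 118 in PBS acetate, 108, 114 and 103 in tau control and 102, 109 and 119 in tau acetate, and an interaction of -0.40 ± 0.08 (SE, adjusted p = 0.0511) that came from the PBS mice (0.42 in PBS and 0.02 in tau). Kcnk3, a leak channel, had -0.85 (adjusted p = 0.0913). The potassium channel list as a whole was nearly even, with 24 members above 0, 28 below and a median of -0.05. It also held a positive call, Kcnj10 at 0.42 (adjusted p = 0.0435), given with the astrocyte genes. The calcium channel subunit Cacna2d1 had -0.29 ± 0.08 (SE, adjusted p = 0.0947), in this case mainly from the tau mice (0.08 in PBS and -0.21 in tau). Dtx4, a Notch pathway ubiquitin ligase, was called at -0.49 (adjusted p = 0.0692). Among negative calls chosen after their values were seen, 4 G protein-coupled receptors had interactions from -3.61 to -1.13: the neuropeptide receptor Npbwr1 -3.61 (adjusted p = 0.056), the thyrotropin-releasing hormone receptor Trhr -3.41 (adjusted p = 0.0634), the prokineticin receptor Prokr2 -1.39 (adjusted p = 0.0755) and the histamine receptor Hrh1 -1.13 (adjusted p = 0.0882). Npbwr1 was scarce, at 0.291, 0.309 and 0.271 CPM in PBS control, 1.68, 0.670 and 0.703 in PBS acetate, 0.865, 2.52 and 0.763 in tau control and 0.248, 0.484 and 0.450 in tau acetate, and these receptors together had a median interaction of -2.4.

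Nuclear long noncoding RNAs and splicing genes leaned to the negative side as groups, with few calls. Of 12 such RNAs 11 were below 0, 6 had an unadjusted p below 0.05 and 1, Ftx, was called, with a median of -0.24. Ftx (chrX:103560907-103623790), a noncoding RNA of the X inactivation centre, had 45.1, 46.3 and 42.2 CPM in PBS control, 56.7, 54.4 and 55.3 in PBS acetate, 47.6, 43.3 and 51.7 in tau control and 42.2, 37.6 and 42.9 in tau acetate. Neither injection showed overlap between the diets, and the interaction was -0.53 ± 0.10 (SE, adjusted p = 0.0435). Miat had -0.71 (adjusted p = 0.158) and Rian -0.27 (adjusted p = 0.134). Of 40 splicing and RNA-binding genes 35 were below 0, 10 with an unadjusted p below 0.05, and the median was -0.12. None of these was called by edgeR and 1 by DESeq2, and the smallest p belonged to Pnisr, -0.34 (unadjusted p = 0.00439), followed by the splicing kinase Clk4, -0.30 (unadjusted p = 0.00671). Both lists have members retained in the nucleus, and whether that bears on their direction was not tested. Across the called genes, 5 of 66 negative calls (7.58%) and 1 of 164 positive calls (0.61%) were long noncoding RNAs. Their share of all genes tested was not counted, so neither percentage can be read as high or low.

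Of the other negative calls, 5 neuronal genes of the cytoskeleton and of adhesion are given as examples, chosen after their values were seen. Cttnbp2, a cortactin-binding protein of dendritic spines, had 242, 244 and 220.2 CPM in PBS control, 293, 319 and 293 in PBS acetate, 278, 264 and 267 in tau control and 267, 238 and 273 in tau acetate, and an interaction of -0.42 ± 0.08 (SE, adjusted p = 0.0466), while the p21-activated kinase Pak6 had 48.1, 54.5 and 51.7 CPM in PBS control, 74.5, 80.5 and 67.6 in PBS acetate, 64, 73.6 and 61 in tau control and 60.2, 64.3 and 70.2 in tau acetate, and -0.56 ± 0.12 (SE, adjusted p = 0.0466). In both, the PBS diets were apart and the tau diets were not. The dendritic adhesion molecule Icam5 had -0.27 (adjusted p = 0.0839), the doublecortin-like kinase Dclk1 -0.30 (adjusted p = 0.0874) and the neurite outgrowth protein Gprin1 -0.32 (adjusted p = 0.0839). Among the remaining leading negative genes were the kinase Stk26, -0.94 ± 0.20 (SE, adjusted p = 0.0511), the zinc finger gene Zkscan16, -0.48 ± 0.10 (SE, adjusted p = 0.0542), the protein-coding gene A230050P20Rik, -0.39 ± 0.08 (SE, adjusted p = 0.049), and the autophagy-associated FoxO target Depp1, -2.15 ± 0.47 (SE, adjusted p = 0.056). Depp1 was scarce, at 0.931, 0.849 and 0.406 CPM in PBS control, 2.97, 1.86 and 1.85 in PBS acetate, 1.59, 1.39 and 2.06 in tau control and 1.09, 1.21 and 1.09 in tau acetate.

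Markers of neuron classes are given beside these results. CA1 markers were below 0 in 7 of 8, with a median of -0.52 from 0.70 in PBS and 0.12 in tau. Their sum was 695, 609 and 531 CPM in PBS control, below all other mice, 989.7, 1110.0 and 831 in PBS acetate, 893, 832 and 717 in tau control and 754, 1023 and 1076 in tau acetate. None was called by edgeR or DESeq2, and 4 had an unadjusted p below 0.05, among them Man1a at -1.10 (unadjusted p = 0.027) and Fibcd1 at -0.55 (unadjusted p = 0.043). CA3 markers were above 0 in 6 of 6 (median 0.34), as were CA2 markers in 6 of 6 (median 0.33, and 0.16 without tau control mouse 2), with none called by either tool and 1 in each with an unadjusted p below 0.05, Iyd at 1.10 (unadjusted p = 0.0266) and Map3k15 at 1.35 (unadjusted p = 0.0464). The CA3 median diet difference was below 0 in both injections, -0.695 in PBS and -0.173 in tau. For CA2 it was -0.369 in PBS and -0.019 in tau. Diet differences had opposite signs in 1 of 6 CA3 markers and 3 of 6 CA2 markers. Inhibitory neuron markers were below 0 in 12 of 14 (median -0.14), with 4 past an unadjusted p of 0.05, among them Vip at -0.79 (unadjusted p = 0.00469); edgeR called none and DESeq2 1. Their sum was 1339 to 1422 CPM in PBS control and 1380 to 1597 in the other groups. The fit with the CA1 minus CA3 score is described last.

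Many functions had a median interaction near 0. Single members could still have diet differences of opposite sign, as 44.6% of all genes tested did. They were found in 22 of 73 oxidative phosphorylation subunits and 33 of 74 ribosomal proteins. The median interaction was -0.01 for 73 oxidative phosphorylation subunits, 0.01 for 74 ribosomal proteins, 0.01 for 34 proteasome subunits, 0.01 for 25 cholesterol synthesis enzymes and 0.004 for 40 synaptic vesicle and release genes. No member of these 5 lists was called by edgeR or DESeq2, and 14 members had an unadjusted p below 0.05. Immediate early genes, which neuronal activity induces, had a median of 0.04 over 24 members with none called by edgeR, 4 past an unadjusted p of 0.05 and 2 called by DESeq2. Tau, amyloid and risk genes had a median of 0.05 over 24 with none called by either tool and 2 past an unadjusted p of 0.05, the tau gene Mapt at 0.18 (unadjusted p = 0.0264) and the endocytic adaptor Picalm at 0.17 (unadjusted p = 0.0323). Of 18 genes handling acetate and acetyl-CoA 13 were above 0, none was called by edgeR and 1 by DESeq2, and 2 had an unadjusted p below 0.05, Aspa and the mitochondrial synthetase Acss3, 1.38 (unadjusted p = 0.00482). Acss2 itself had an interaction of 0.034. In all, 30 of the 51 lists had no called member, 42 of the 230 called genes belonged to a list, and across genes the diet difference in PBS mice and that in tau mice, which share no mouse, had a Pearson correlation of -0.14 and a Spearman correlation of 0.0399 over 14742 genes.

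**Figure D3:**
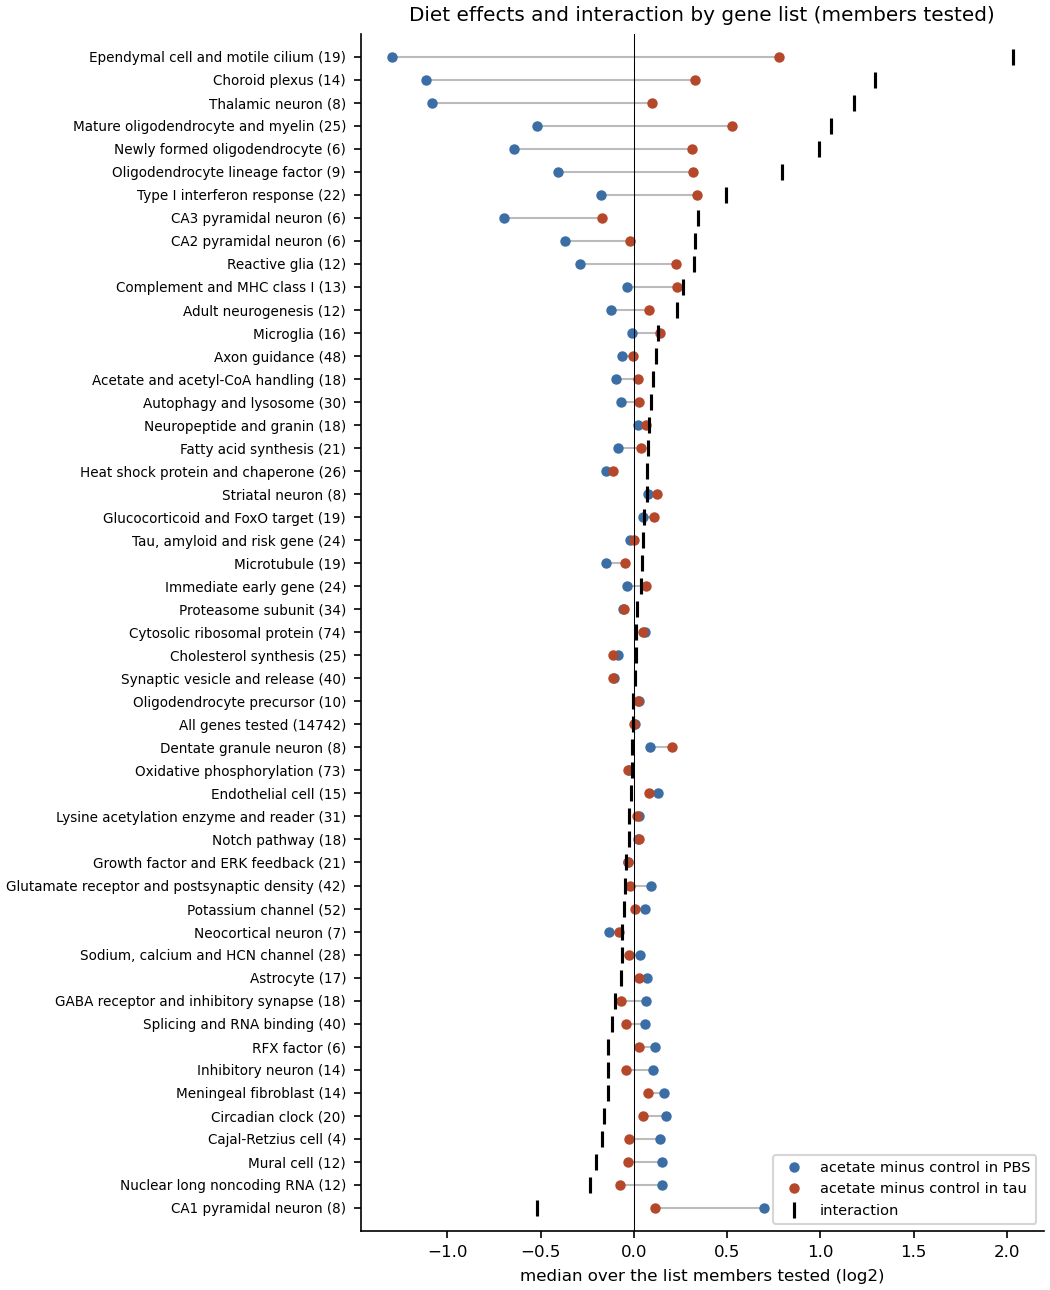
Median over the tested members of each list (log2, x axis) of the diet difference in PBS (blue), the diet difference in tau (red) and the interaction (black bar), for all genes and for the lists with 4 or more members tested. Ependymal, myelin and lineage lists at the top have the diet medians on opposite sides of 0, metabolic and ribosomal lists in the middle have both near 0, and CA1 markers at the bottom have the lowest interaction median.

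**Figure D4:**
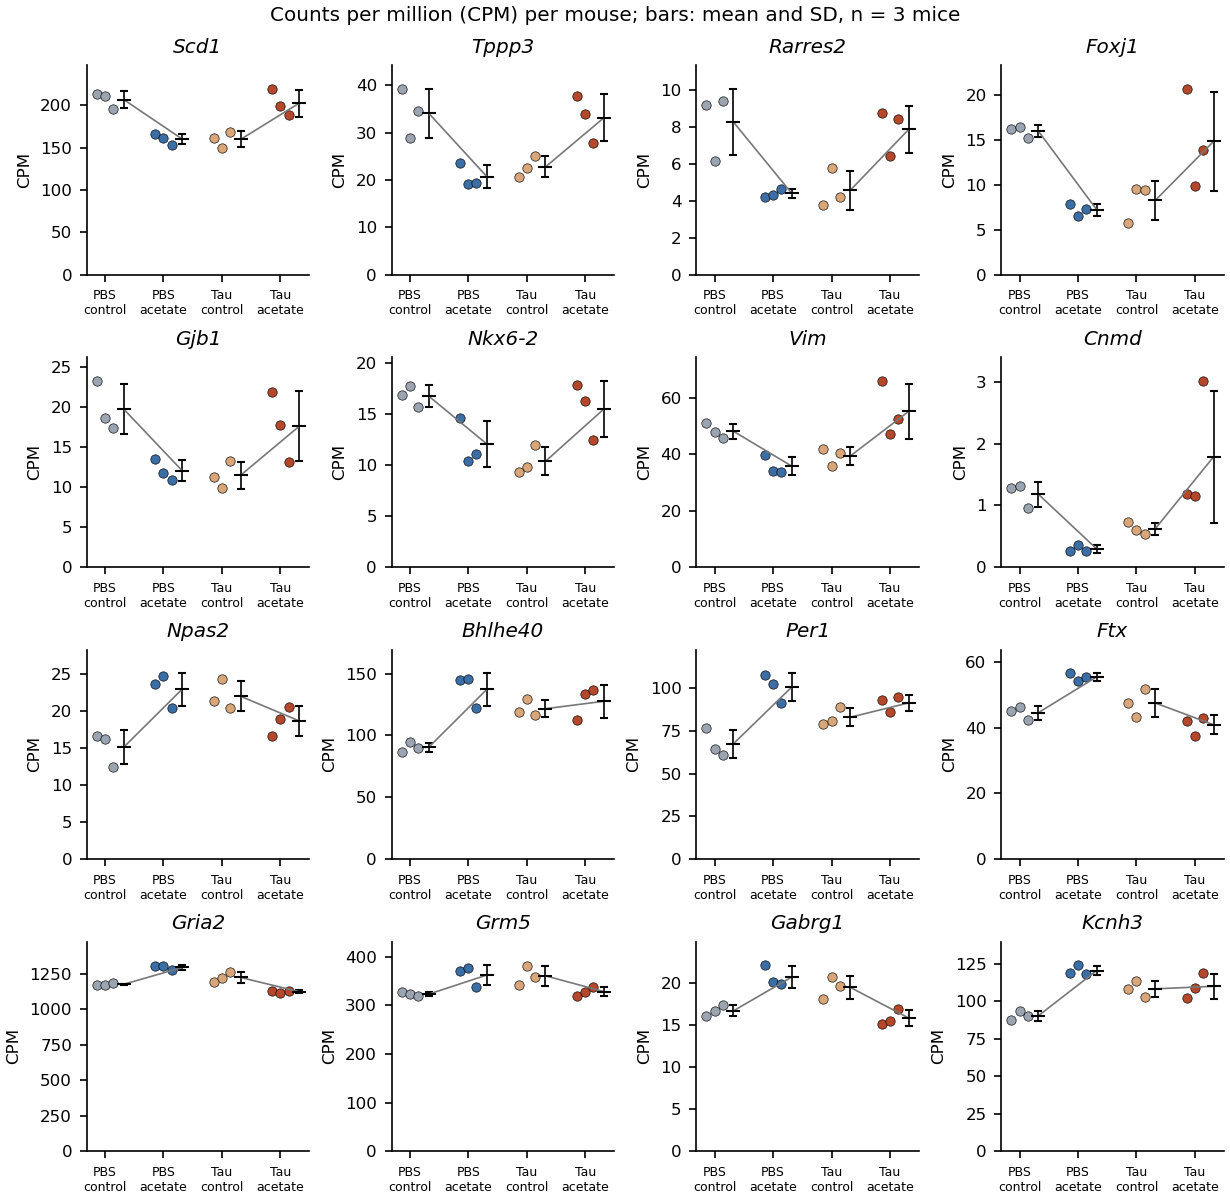
CPM per mouse (y axes, from 0) of 16 named genes in the 4 groups (x axes), with mean and SD over 3 mice beside the points. The upper 8 genes, with positive interactions, have lower means with acetate in PBS and higher means with acetate in tau, and the lower 8, with negative interactions, have higher means with acetate in PBS and lower or slightly higher means in tau.

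The number of calls depended on single mice and on list scores entered as covariates. With each mouse left out in turn, positive calls ranged from 7 (without PBS acetate mouse 2) to 332 (without tau acetate mouse 3) and negative calls from 1 to 110 for the same mice; without tau acetate mouse 1 there were 19 and 3, and without tau control mouse 2, 41 and 6. Of the 164 positive calls 156 were called again without tau acetate mouse 3. The calls that held with each of the 12 mice left out, among the genes named here, were Scd1, Tppp3, Rarres2, Prkcq, Dbndd2, Car14 and Rgma, all positive. Of the named negative calls, Ftx and Cttnbp2 held in 11 of 12. With the CA1 minus CA3 list score of each mouse as a covariate, 4 positive calls remained (Scd1, Prkcq, Cnmd and the G protein subunit gene Gng8) and 0 negative ones, with unadjusted p below 0.05 for 570 and 411 genes. With the myelin list score as a covariate, 4 positive genes were called, of which Cnmd was called before and Irx1, Necab3 and Otx2 were not, and again 0 negative ones, with 440 and 472 genes past an unadjusted p of 0.05. In that fit the ependymal median was still 1.87, the lineage factor median 0.02 and the clock median -0.06. Each score follows the interaction itself and holds members of the lists, so these fits cannot tell a change in cell makeup from a change within cells.

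**Figure D5:**
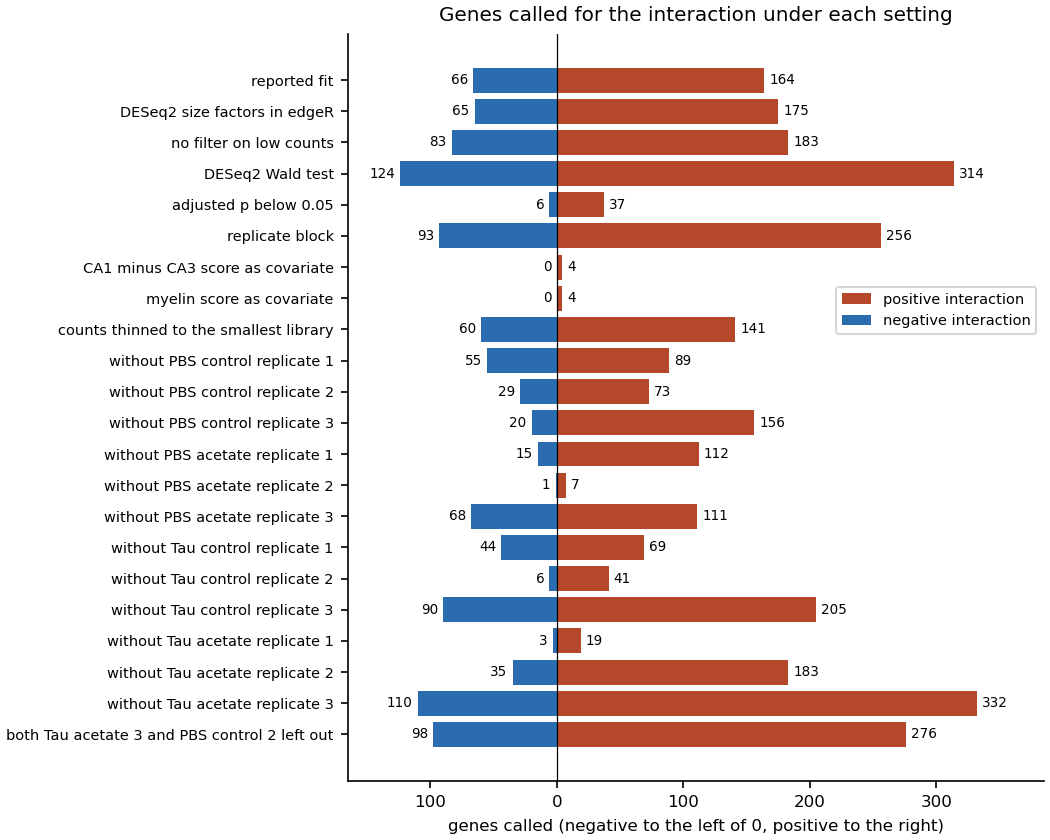
Number of genes called (x axis) with a positive interaction (red, to the right) and a negative one (blue, to the left) in the reported fit and under each other setting (y axis). Positive calls outnumber negative ones under every setting, and the totals run from 4 with a list score as covariate to 442 without tau acetate mouse 3.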

How the data were processed

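Messenger RNA was sequenced from the right dorsal hippocampus of 12 mice. Per the submitters' processing notes and methods, the authors aligned reads to GRCm38 with STAR 2.5.2a and counted them by gene and strand with HTSeq 0.9.1, and the deposited values are raw read counts per gene. From these counts edgeR 4.0.16 (R 4.3.3) kept 14742 of 24985 genes (filterByExpr, minimum count 10, minimum total 15), scaled libraries by TMM and fitted 1 mean per group with robust quasi-likelihood F tests (residual degrees of freedom: 8). The p-values were adjusted over all genes tested (Benjamini-Hochberg) and 0.1, used by the study for this experiment, was the threshold for a call. CPM are counts scaled to a TMM-adjusted library of 1000000, SDs are over 3 mice, and intervals from counting alone were not used. Tests were two-sided and checked on simulated counts. DESeq2 1.42.0 was an alternative, as were no filter, thinning, the replicate block, list scores as covariates and leaving out mice.

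The 51 gene lists (21 cell types, 30 functions, 1083 genes, 1060 tested) and the comparison were chosen with earlier results of these data known, and no set test was run. Named genes were the 12 with the smallest p in each direction, every called list member, the member with the largest interaction of a list, the 5 smallest p of a list without calls, and those said to be chosen after their values were seen. Some genes that meet this rule are not reported here. Other values quoted for list members are descriptions. Locations are from GENCODE (GRCm38), promoters and Scn2a's older symbol from RefSeq.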

Additional observations from a re-analysis of the deposited data

Results flagged for a closer look

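The effect of acetate differed between the injections, by the interaction test itself, for 164 genes with a positive and 66 with a negative interaction. Each group held 3 mice, too few to look for a mouse far from the rest of its group within each gene. Among genes of the ependymal cell and motile cilium list, the log2 interactions were 2.00 for Foxj1, 2.70 for Tmem212, 1.70 for Rarres2, 2.88 for Dynlrb2, 2.51 for Mia, 2.43 for Ak7, 3.03 for Pifo and 1.66 for Enkur. Among oligodendrocyte genes, they were 1.21 for Fa2h, 1.35 for Gjb1, 1.30 for Nipal4, 1.09 for Tmem125, 1.07 for Nkx6-2 and 1.40 for Enpp6. Among glial reaction, complement, choroid plexus and astrocyte genes, the values were 0.93 for Vim, 1.57 for Cd44, 3.60 for C3, 2.92 for Folr1, 0.35 for Aqp4 and 0.42 for Kcnj10. Among lipid, stress, growth factor, lysosome and deacetylase genes, they reached 0.71 for Scd1, 1.80 for Plin4, 0.66 for Fbxo32, 0.47 for Spry2, 0.38 for Fgf1, 0.29 for Lamp1, 0.53 for Retreg1 and 0.32 for Sirt2. Among the other leading positive genes, these were 1.28 for Tppp3, 1.28 for Prkcq, 0.56 for Dbndd2, 1.09 for Car14, 0.50 for Rgma, 0.78 for Myoc, 0.66 for Nkain1 and 3.46 for Cnmd. On the negative side, among clock, receptor and channel genes, they stood at -0.85 for Npas2, -0.54 for Bhlhe40, -0.44 for Per1, -0.26 for Gria2, -0.27 for Gria3, -0.30 for Grm5, -0.61 for Gabrg1, -0.40 for Kcnh3, -0.85 for Kcnk3 and -0.29 for Cacna2d1. Among the other negative genes, they were -0.53 for Ftx, -0.42 for Cttnbp2, -0.56 for Pak6, -0.39 for A230050P20Rik, -0.94 for Stk26, -0.48 for Zkscan16, -3.61 for Npbwr1, -2.15 for Depp1 and -0.49 for Dtx4.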

How the results depend on the processing

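The sign of every called gene named in the report held under all settings, but the counts did not. Positive and negative calls, 164 and 66, became 314 and 124 with DESeq2's Wald test, which called 163 and 65 of them again, and 37 and 6 at an adjusted p below 0.05, where fewer genes pass by construction. Those with diet differences of opposite sign, 162 and 59, became 308 and 113, and 37 and 6. With the CA1 minus CA3 score or the myelin score as a covariate there were 4 positive calls and 0 negative ones, all 4 crossing over. Leaving out both tau acetate mouse 3 and PBS control mouse 2, chosen after seeing the data, gave 276 positive calls, 269 of them crossing over, and 91 crossing negative ones. With each mouse left out in turn, positive calls ran from 7 to 332 and negative ones from 1 to 110, and those crossing over from 7 to 325 and from 1 to 105. Other causes of these shifts were not tested. DESeq2 size factors, no filter on low counts and thinning to the smallest library kept the counts of positive and negative calls within 1.5 times.

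The replicate numbers did not pair the mice: deviations of same-numbered mice correlated above 0.1 in 2 of 18 pairs (-0.105 to 0.144, against -0.143 to 0.15 for other pairs). With the replicate number as a block, 256 positive and 93 negative genes were called, 251 of the positive ones crossing over.

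Among the named genes only uncalled ones changed sign. Acss2 went from 0.034 to -0.0829 with the CA1 minus CA3 score and -0.182 with the myelin score, and ran from -0.0357 to 0.0810 with a mouse left out. Cxcl10, at 2.67, went to -0.12 and -0.179 with these scores, and Sox10, Olig1 and Scd2 to -0.202, -0.0396 and -0.0524 with the myelin score. Without tau acetate mouse 3, Kcne2 went from 3.43 to -0.0563 and Ttr to -0.17, with highest values of 4.07 and 2.34 when other mice were left out, and Ttr went to -0.0568 with both mice left out. Genes near 1 CPM rest on few reads, so their intervals are wide, and 3 mice a group limit the precision.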

Other observations

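Lists not described above held few calls or none in edgeR. Over all 14742 genes tested, 6.76% had an unadjusted p below 0.05 with a positive interaction and 6.23% with a negative one. DESeq2 called 314 positive and 124 negative genes in all. The counts below are to be read beside these values. Adult neurogenesis genes (12 genes) had a median of 0.23, with an unadjusted p below 0.05 for 2 positive and 1 negative members and 1 and 1 called by DESeq2. Their members did not move together: doublecortin (Dcx), a microtubule protein of newborn neurons, had an interaction of -0.75 (adjusted p = 0.105), and Cd24a, a surface protein of newborn neurons and ependymal cells, 1.21 (adjusted p = 0.148). Axon guidance genes (48 genes) had a median of 0.12, with an unadjusted p below 0.05 for 7 positive and 7 negative members and 4 and 0 called by DESeq2. Heat shock proteins and chaperones (26 genes) had a median of 0.07, with an unadjusted p below 0.05 for 4 positive and 0 negative members and 2 and 0 called by DESeq2. The co-chaperone Bag3 had 0.66 (adjusted p = 0.117) and the small heat shock protein Cryab, which oligodendrocytes also make, 1.02 (adjusted p = 0.144). Microtubule genes (19 genes) had a median of 0.04, with an unadjusted p below 0.05 for 4 positive and 1 negative members and 2 and 0 called by DESeq2. Tppp3 was their 1 call in edgeR. Growth factor and ERK feedback genes (21 genes) had a median of -0.04, with an unadjusted p below 0.05 for 2 positive and 2 negative members and 2 and 0 called by DESeq2. Spry2 and Fgf1 were called there. Notch pathway genes (18 genes) had a median of -0.03, with an unadjusted p below 0.05 for 0 positive and 2 negative members and 0 and 1 called by DESeq2. Dtx4 was called there.

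For the remaining lists edgeR called none. Neuropeptides and granins (18 genes) had a median of 0.08, with an unadjusted p below 0.05 for 1 positive and 2 negative members and 0 and 0 called by DESeq2. Mural cell markers (12 genes) had a median of -0.20, with an unadjusted p below 0.05 for 1 positive and 2 negative members and 0 and 1 called by DESeq2. The smooth muscle myosin Myh11 had -1.17 (adjusted p = 0.179). Endothelial markers (15 genes) had a median of -0.02, with an unadjusted p below 0.05 for 0 positive and 2 negative members and 0 and 0 called by DESeq2. Meningeal fibroblast markers (14 genes) had a median of -0.14, with an unadjusted p below 0.05 for 1 positive and 1 negative members and 0 and 0 called by DESeq2. Cajal-Retzius markers (4 genes) had a median of -0.17, with an unadjusted p below 0.05 for 0 positive and 2 negative members and 0 and 2 called by DESeq2. Dentate granule neuron markers (8 genes) had a median of -0.01, with an unadjusted p below 0.05 for 0 positive and 0 negative members and 0 and 0 called by DESeq2. Neocortical markers (7 genes) had a median of -0.07, with an unadjusted p below 0.05 for 1 positive and 1 negative members and 0 and 0 called by DESeq2. Striatal markers (8 genes) had a median of 0.07, with an unadjusted p below 0.05 for 1 positive and 1 negative members and 0 and 0 called by DESeq2. Of the blood list, 1 gene was tested, Alas2, at -0.32 (unadjusted p = 0.441), and DESeq2 called 0.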
